A study of Homo sapiens with 10 samples.

Results

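Runs of regularly spaced nucleosomes were examined in the pooled list of nucleosome positions of human induced pluripotent stem cells (hiPSCs). A run was defined by the measured distances between neighbouring midpoints, as a maximal series on chromosomes 1 to 22 of at least 5 consecutive distances that each lay from 170 to 210 bp, and so holds at least 6 positions. There were 17347 such runs, which held 112254 of the 12465711 autosomal positions, or 0.901%, out of 12921589 positions in the whole list. The hiPSC line was PB010.5, with a fluorescent cell-cycle reporter inserted at EEF2, and all groups came from it. Chromatin was digested for 5 min with MNase, a nuclease that cuts between nucleosomes, at 10, 6, 3, 1 or 0.5 U. Each of the 5 concentrations gave 1 library, sequenced with 150-bp reads and, at low depth, with 50-bp reads, which makes 10 samples. The list was called on pooled libraries, so it holds no value for a single sample or concentration and no replicates. The positions are 140 bp wide and each has a score, a signal in the authors' own units whose scaling is not stated. Scores lie on whole steps of 1.23, within 0.001 of a step, apart from 20 positions, so values such as 6.17 and 7.40 are 1 step apart. What a step is in reads is not stated. The spread given below is the SD over the 22 autosomes, which are not replicates of an experiment, and no p-value is given.

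In chromatin, nucleosomes follow each other along the DNA with a short linker between them, and the nucleosome repeat length is the length of the nucleosome core plus one linker. Remodelling enzymes and boundaries such as active promoters or bound CTCF, a zinc finger protein that separates chromatin domains, are known to set up ordered arrays in which the distance between neighbours is nearly constant. In a list pooled over many cells, an array is seen only where the cells share the same positions.

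The sequences below show the DNA under the longest run, under the densest cluster of runs and at CTCF motifs inside runs. All are from the GRCh38 reference. The longest run had 14 distances and lay at chr9:14693812-14696571. Its beginning, chr9:14693881-14694180 on the plus strand, is shown from the first midpoint, with the linkers between the called intervals in capitals.
longest run: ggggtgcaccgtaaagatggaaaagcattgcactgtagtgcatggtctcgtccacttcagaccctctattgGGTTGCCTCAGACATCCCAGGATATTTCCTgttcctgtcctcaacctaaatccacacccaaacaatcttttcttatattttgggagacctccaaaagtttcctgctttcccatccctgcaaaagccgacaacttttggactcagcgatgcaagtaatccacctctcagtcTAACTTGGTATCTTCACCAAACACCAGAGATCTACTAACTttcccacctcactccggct

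Of the 20 runs in the densest cluster, on chromosome 12, 19 lay on a sequence that repeats itself about every 188 bases, with partial identity between the copies. Neighbouring repeat units are shown for 2 runs on the plus strand, with the bases that are the same in both units in capitals. They were chosen after the values were seen, as the run with the highest identity beside the cluster and the one with the highest identity in it. The first pair lies at chr12:34604653-34604840 and chr12:34604841-34605028, and its units share 153 of 188 bases (81.4%).
first pair, unit A: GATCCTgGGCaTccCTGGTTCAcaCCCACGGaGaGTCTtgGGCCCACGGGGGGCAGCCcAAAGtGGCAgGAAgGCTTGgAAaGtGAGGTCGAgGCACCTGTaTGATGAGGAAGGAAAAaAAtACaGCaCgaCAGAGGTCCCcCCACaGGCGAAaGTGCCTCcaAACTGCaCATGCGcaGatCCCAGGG
first pair, unit B: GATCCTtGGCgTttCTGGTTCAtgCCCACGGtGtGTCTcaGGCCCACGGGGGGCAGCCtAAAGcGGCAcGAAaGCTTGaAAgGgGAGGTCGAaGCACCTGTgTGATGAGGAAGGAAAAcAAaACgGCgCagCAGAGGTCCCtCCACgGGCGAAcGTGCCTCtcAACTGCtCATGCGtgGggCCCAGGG
The other pair lies at chr12:34361762-34361950 and chr12:34361951-34362139, and its units share 147 of 189 bases (77.8%).
other pair, unit A: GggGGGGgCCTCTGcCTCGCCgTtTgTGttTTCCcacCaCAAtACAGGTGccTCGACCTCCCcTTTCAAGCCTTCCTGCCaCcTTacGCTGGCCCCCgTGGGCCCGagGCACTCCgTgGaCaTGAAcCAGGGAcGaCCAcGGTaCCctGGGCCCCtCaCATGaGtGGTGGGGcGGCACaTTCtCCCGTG
other pair, unit B: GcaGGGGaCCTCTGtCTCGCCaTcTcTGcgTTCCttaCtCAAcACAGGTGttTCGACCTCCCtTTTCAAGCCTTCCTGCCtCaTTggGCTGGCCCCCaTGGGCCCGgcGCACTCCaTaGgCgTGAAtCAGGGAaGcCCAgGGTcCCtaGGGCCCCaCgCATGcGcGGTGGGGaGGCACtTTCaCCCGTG

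The 3 longest runs that held a match to the CTCF core consensus are shown by the 12 bases of the match, in capitals, with 24 bases on either side, each on the strand of the match. The stretch shown from the run near DCAF1 is chr3:51502195-51502254 on the plus strand, that from the run in TBXAS1 chr7:140002443-140002502 on the minus strand, and that from the run near INAFM2 chr15:40321042-40321101 on the plus strand.
near DCAF1: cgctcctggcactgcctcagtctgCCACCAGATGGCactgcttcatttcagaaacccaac
in TBXAS1: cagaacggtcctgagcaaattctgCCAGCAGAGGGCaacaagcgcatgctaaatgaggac
near INAFM2: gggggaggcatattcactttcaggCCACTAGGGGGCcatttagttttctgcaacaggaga

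Runs were more frequent than the same distances gave in random order. Of the 12465689 autosomal distances, 25.3% lay from 170 to 210 bp. This share is the base of the rule itself and was read only as background. When the distances were shuffled within each chromosome, 100 shuffles gave 9771 runs on average, with a range from 9524 to 10002, so the list held 1.78 times as many (SD over autosomes 0.0722). The ratio was lowest on chromosome 16, at 1.64, and highest on chromosome 5, at 1.90. Every autosome had more runs than its highest shuffled count. When the distances were shuffled only within blocks of 1000 consecutive distances, which keeps the local mix of distances, the ratio was 1.70. It was 1.79 in the 2491 blocks with the lowest GC content and 1.60 in the 2491 with the highest.

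Most runs were short, and the excess grew with length. The runs spanned 18.0 Mb between first and last midpoints, or 0.652% of the sequenced autosomal bases, with a median span of 965 bp. Runs of 5 or 6 distances made up 89.8% of them. Just inside the threshold, 11765 runs had exactly 5 distances, and just outside it 38796 series had exactly 4. There were 5582 runs of at least 6 distances against a shuffled mean of 2474, 560 runs of at least 8 against 160, and 62 runs of at least 10 against 10.4, with shuffled counts of 3 to 17. After 1 distance in range, the next was in range in 28.3% of cases, against 24.3% after a distance out of range. After 2, 3, 4 and 5 distances in range, the share was 29.8%, 30.6%, 31.2% and 32.0%. After 6 and 7 distances it was 31.7% and 31.8%, so it no longer rose.

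**Figure D1:**
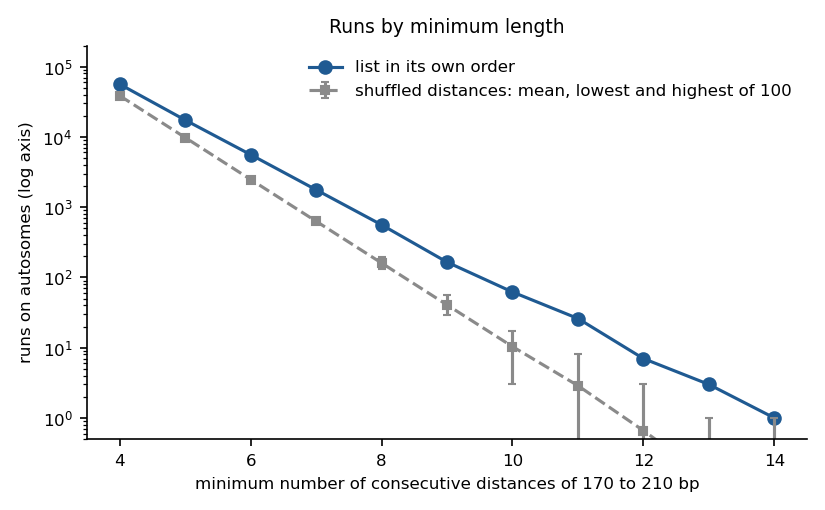
Number of autosomal runs (log axis) against the minimum number of consecutive distances from 170 to 210 bp, for the list in its own order (circles) and for shuffled distances (squares, mean of 100 shuffles, bars from the lowest to the highest). The list lies above the shuffled counts from 56143 series of at least 4 distances down to 7 runs of at least 12, where the shuffled mean was 0.660.

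The same count was made for other ranges of the same width of 40 bp, chosen after the first results were seen, each against 20 shuffles. The ratio of observed to shuffled runs was highest from 170 to 210 bp and from 180 to 220 bp, at 1.77 in both. It was below 1 from 140 to 180 bp, at 0.850, and from 220 to 260 bp, where 277 runs stood against 461 (0.601). A separate excess appeared from 100 to 140 bp, at 1.54, with 36983 runs. The shortest distance in the list is 100 bp, so those runs hold neighbouring intervals that overlap or nearly touch. They had a mean score of 16.4 and a mean GC content of 46.7%, against 18.3 and 44.7% in the runs of 170 to 210 bp.

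**Figure D2:**
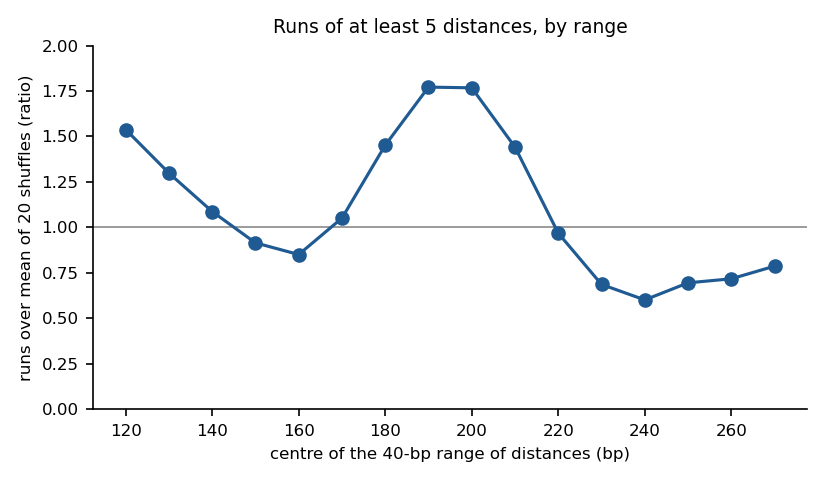
Ratio of observed runs of at least 5 distances to the mean of 20 shuffles, against the centre of a 40-bp range of distances (bp), with a line at 1. The ratio peaks at 1.77 for ranges centred on 190 and 200 bp, falls to 0.601 at 240 bp, and is 1.54 at the shortest distances.

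The repeat of the runs is bounded by the rule, so its values are a description only. The mean repeat was 189.3 bp per run (SD over 17347 runs 5.63), which lies near the centre of the range that the rule allows. The single distances in runs had an SD of 13.4 bp, against 13.5 bp for all distances in range, which share the same limits and include those of the runs. If each run were made of independent distances of that spread, run means would have an SD of 5.84 bp, close to the 5.63 bp measured. Adjacent distances within a run had a correlation of -0.034 over 77560 pairs, whose members share a midpoint. Of all distances, 89.3% were multiples of 10 bp, so the grid of the list limits how finely the repeat is known. The mean repeat went from 189.8 bp in the 3469 runs with the lowest GC content to 188.9 bp in the 3471 with the highest, where the SD over autosomes was 0.316 bp. Of the distances next to a run, 54.4% were shorter than 170 bp, 33.4% were from 211 to 339 bp and 7.40% were from 340 to 420 bp, which is 2 times the allowed range, as a missing position would leave. Among all distances out of range, 7.17% had that doubled length. The distances just beyond the limits were more common beside runs, with 15.5% from 150 to 169 bp and 11.8% from 211 to 230 bp, against 13.9% and 9.17% of all distances out of range. Distances over 420 bp were less common beside runs, at 4.81% against 6.86%.

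Positions in runs had higher scores than other positions. The mean score was 18.3 in runs and 15.7 elsewhere, a ratio of 1.17 (SD over autosomes 0.0163), and it was higher in runs on 22 of 22 autosomes. The step lay at the border of the run itself. The mean was 17.8 for end positions, 18.4 for the next and 18.6 for the third, but 16.4 for the first position outside. It lay from 16.4 to 16.7 for the first 10 places outside. Positions of the same GC decile outside runs had a mean of 16.3. The share of positions in runs went from 0.494% in the lowest score decile to 1.56% in the highest. Tied scores make these deciles unequal, with 471924 positions in the lowest, 1855707 in the second and 1347200 in the highest.

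GC content differed little between the runs and their surroundings. Run positions had a GC content of 44.7% and other positions 43.3%, a difference of 1.49 percentage points (SD over autosomes 0.519, higher in runs on 22 of 22). Positions 6 to 10 places outside the same runs had 44.6%, only 0.118 points less than those inside. When positions were divided into 3 classes by score and 3 by GC content, after the first results were seen, the share in runs was higher at high scores in each GC class. In the low score class it was 0.624%, 0.573% and 0.586% from low to high GC content, and in the high score class it was 1.20%, 1.18% and 1.23%. Around the midpoints of run positions, GC content was 44.7% in the 10 bp after the midpoint and 45.1% at 90 to 100 bp, which in a run is near the middle of the linker. Around other positions it was 43.2% and 42.7%, so it was lower at that distance outside runs and slightly higher in them.

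**Figure D3:**
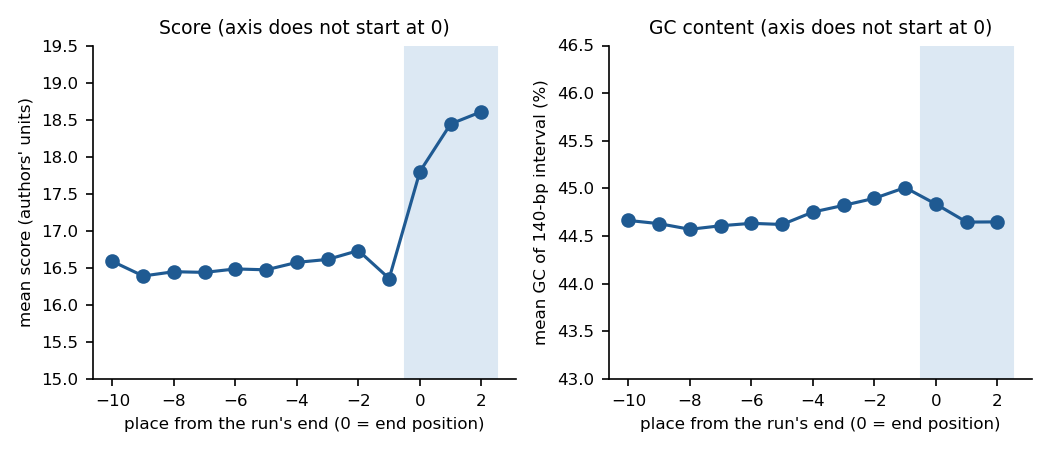
Mean score (authors' units, left) and mean GC content of the 140-bp intervals (%, right) against the place of a position counted from the end of a run, with 0 for the end position, negative places outside and the shaded places inside. Neither axis starts at 0. The score steps from 16.4 just outside to 17.8 at the end and 18.6 inside, while GC content stays between 44.6% and 45.0%.

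Run positions were more frequent near gene starts. Features were allowed to overlap. With at least 0.40 of a position required inside a feature of GENCODE release 44, 5.59% of run positions lay in promoters, the 2 kb upstream of each annotated gene (95% Wilson interval 5.46% to 5.73%), against 4.25% of other positions. The interval covers counting error only, and neighbouring positions are not independent. The ratio was 1.32 (SD over autosomes 0.189), and promoters held a higher share of run positions on 21 of 22 autosomes. The 5′UTR held 0.697% against 0.452%, a ratio of 1.54 (SD 0.316), and was higher on 21 of 22. Introns held 56.6% against 58.7%. That ratio of 0.964 was within the spread of 0.0414, although it was above 1 on only 3 of 22 autosomes. For coding sequence (1.95% against 1.70%), the 3′UTR (2.05% against 2.00%) and intergenic sequence more than 2 kb from any gene (32.5% against 32.0%), the difference was smaller than the spread over autosomes. Runs of at least 8 distances were intronic at 50.7% of their 5304 positions and intergenic at 39.3%. Those positions come from 560 runs, and no spread over autosomes was computed for them. The score was also higher in promoters, with a mean of 17.2. The scores of promoter positions alone, through the share of each score decile in runs, gave an expected 0.953% in runs, and 1.18% were (SD over autosomes 0.176 in the ratio of 1.24).

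Of the positions centred 0 to 1000 bp downstream of the canonical transcription start sites (TSSs) of 19111 protein-coding genes, 1.73% were in runs, which is 1.92 times the autosomal share (SD over autosomes 0.403, above it on 22 of 22). Of those up to 1000 bp upstream, 1.94% were in runs, or 2.16 times (SD 0.729, 20 of 22). From 2000 to 3000 bp downstream the share was back at 0.903%. Over the 1000 bp downstream, the share expected from the score deciles was 1.07%. Few genes had a run that began just downstream of the start. In 99 genes (0.518%), a run had its TSS-nearest midpoint 0 to 300 bp downstream of the start and continued into the gene, at a median of 127 bp from the TSS. With every TSS moved by 5000 bp, the count of 99 became 52 in one direction and 49 in the other. The corresponding count upstream of the start was higher, at 122 genes, but no count at moved starts is given for it. Runs upstream of a start can lie in a neighbouring gene, so the same run can be counted on both sides. At LRRC41 (-205 bp) and UQCRH (123 bp), which start on opposite strands, it was the same midpoint. The 99 runs had a mean score of 23.1 and a mean repeat of 188.7 bp (SD over runs 5.75).

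**Figure D4:**
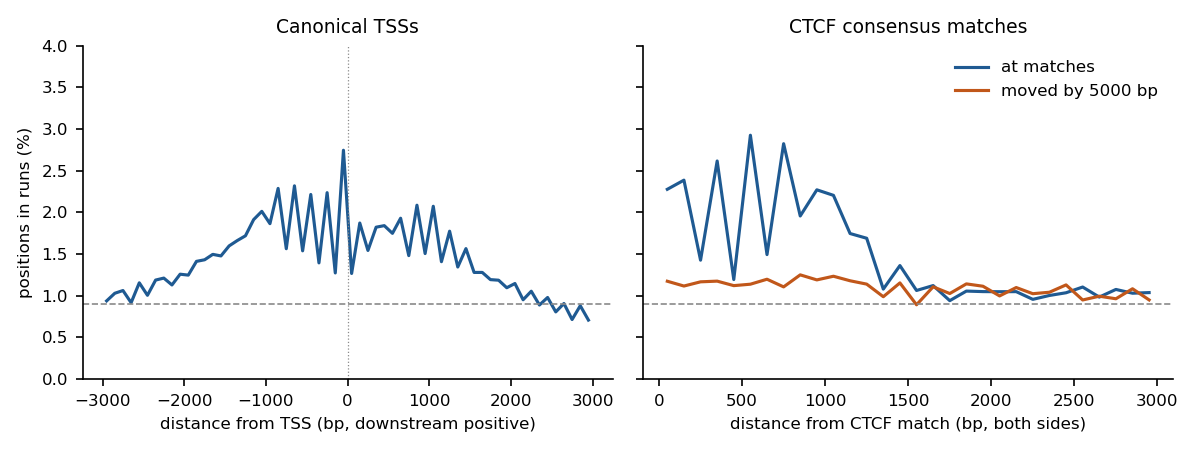
Share of positions in runs (%) in 100-bp bins, against the distance from canonical TSSs (bp, left) and from CTCF consensus matches (bp, both sides together, right), with the matches moved by 5000 bp in orange in the right panel. The dashed line is the autosomal share of 0.901%. Both profiles are raised within 1000 bp and somewhat beyond, with 2.07% from 1000 to 1100 bp downstream of TSSs and 2.20% at that distance from CTCF matches. They alternate between bins, within 1000 bp of CTCF matches from 1.19% to 2.92%.

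The longest of these runs was at CGN, which encodes cingulin of tight junctions. It had 10 distances at chr1:151511362-151513401, with a mean repeat of 190 bp and scores from 9.87 to 46.9, and its first midpoint lay 44 bp downstream of the TSS. SPOCD1 followed with 9 distances and a mean score of 30.2, and MEFV, which encodes pyrin of the innate immune system, with 9 distances and 20.1. MYDGF, a secreted growth factor gene, MS4A8 and TOR1A, which encodes the torsin A ATPase, had runs of 8 distances. LMF2, TRPV5, which encodes a calcium channel of the kidney, ARHGAP40, a gene with 32 of its 277 positions in 5 runs, and CLCN7, which encodes a lysosomal chloride transporter, had runs of 7 distances. Across these 10 genes, the first midpoint lay from 42 to 149 bp from the TSS. Expression of these genes was not measured here.

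The share of positions in runs was higher near CTCF matches than elsewhere. The consensus was matched on both strands at 10542 autosomal places. Of the positions centred within 1000 bp of a match, 2.25% were in runs, 2.50 times the autosomal share (SD over autosomes 0.787, above it on 22 of 22). That is above the share upstream of TSSs by less than the spread. At the same places moved by 5000 bp it was 1.16%. At 1535 matches to the same motif read backwards, which has the same base composition, it was 0.780%, with a wide spread of 0.803 in the ratio. The motif read backwards begins with CG, a pair that the consensus does not hold, so only base composition was matched. Positions near matches to the consensus itself had a mean score of 18.8, and their score deciles would give 1.01% in runs. In 20-bp bins, run positions were most frequent 170, 350, 530, 710 and 890 bp from the match, with 122, 131, 137, 114 and 94 positions, and least frequent at 90 bp, with 4. The rule itself keeps neighbours in a run 170 to 210 bp apart, so the spacing of these peaks is not a finding. All positions, in runs or not, were most frequent 150, 350, 530, 710 and 870 bp from the match, with 5125, 4046, 3347, 2776 and 2490 positions, and least frequent at 90 bp, with 809. The binding of CTCF was not measured here, so these are sequence matches only.

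The place of matches relative to runs is given as a description, because the rule used the distances that decide it: a wide gap around a match ends a run, so a match in such a gap is counted beyond the end and never inside. Within 200 bp of a run or inside it, a match was found in 331 runs (1.91%), against 117 when the runs were moved by 10 kb. There were 29.1 matches per Mb in the 200 bp beyond the outer midpoints, 7.29 per Mb between the first and the last midpoint, and 3.82 per Mb on all autosomes. Of the 131 matches inside, 7 (5.34%) lay in a linker, more than 70 bp from any midpoint, where linkers made up 25.5% of the bases. Of all 10542 matches, 54.1% lay more than 70 bp from any midpoint, and of the 333 in or beside runs 59.8%. The other matches inside lay within 70 bp of a midpoint, and scores were compared for those nearest to one. For 70 inner positions centred within 50 bp of a match, the mean score was 15.2 (SD 10.0), against 26.6 for the average of their 2 neighbours, and 33 of them (47.1%) had the lowest score of their run. Of all 77560 inner run positions, 17.8% had the lowest score, with a mean of 18.6 against 18.4 for their neighbours. Outside runs, 3846 positions as near to a match had a mean of 16.3 against 21.2 for their neighbours. These placements were examined after the first results were seen.

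The 3 runs with printed motifs show these scores one by one. In the run near DCAF1, a gene for a ubiquitin ligase subunit, the 11 scores were 14.8, 50.6, 6.17, 32.1, 14.8, 33.3, 32.1, 27.1, 24.7, 24.7 and 11.1, and the match lay 3 bp from the midpoint of the position with 6.17. It was the lowest of the run, beside the highest. In the run in an intron of TBXAS1, the thromboxane synthase gene, the scores were 9.87, 19.7, 22.2, 35.8, 9.87, 44.4, 19.7, 12.3, 9.87, 13.6 and 7.40. The match lay 9 bp from the midpoint of the fifth position, with 9.87, which was low but not the lowest. In the intergenic run near INAFM2, the scores were 30.8, 24.7, 32.1, 24.7, 17.3, 24.7, 25.9, 22.2, 85.1 and 6.17. The match lay 30 bp from the midpoint of the last position, the lowest of the run, next to the highest.

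A pair of other consensus sequences was examined in the same way. For the RE1 consensus, which the repressor REST recognises in neuronal genes, 1.16% of positions within 1000 bp of 3909 matches were in runs, against 0.973% at moved sites, with a spread over autosomes of 0.970 in the ratio. In or within 200 bp of 58 runs there was an RE1 match, against 37 when the runs were moved by 10 kb. There were 3.31 RE1 matches per Mb in the 200 bp beyond the outer midpoints, 1.95 between them and 1.42 on all autosomes, from 23 matches beyond and 35 between. Of those 35, 11 (31.4%) lay in a linker. The same limit of the rule holds for these placements. Alu elements, the most abundant short interspersed repeats, were added after the first results were seen, through a consensus of their 5′ part with 211650 matches. Near these matches 0.794% of positions were in runs, 0.882 times the autosomal share (SD over autosomes 0.0884), and it was above the autosomal share on 1 of 22 autosomes. At moved sites it was 0.930%. Such a match was found in or beside 1611 runs, against 2044 when the runs were moved by 10 kb.

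The densest cluster of runs lay in an intergenic part of chromosome 12. Of 12454 blocks of 1000 consecutive distances, 26.7% held no run, against 45.6% after shuffling within blocks, and the median block held 1. The block at chr12:34230672-34462491 held 20 runs, against 7.12 in shuffles of its own distances. The next block, on chromosome 15, held 8, and 16 blocks held 7. In the chromosome 12 block 41.3% of distances were in range, and 7 of the 20 runs had at least 8 distances, out of 560 such runs on all autosomes. It holds no protein-coding gene, and its only annotated gene is the processed pseudogene AK6P1. A further 3 runs lay at chr12:34599892-34607171. This cluster was picked out after its values were seen, so it is a description.

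The DNA of this cluster repeats with nearly the period of the nucleosomes. For each run, the span between the outer midpoints was compared with itself at every lag from 150 to 230 bp, without gaps. Of the 20 runs, 19 had their highest identity at a lag within 3 bp of 188 bp, and the identity of the 20 ranged from 40.8% to 61.0%. The median over all 17347 runs was 29.8%. From chr12:34332542 to 34406801, the 74.3 kb that hold these 19 runs, identity was highest at a lag of 188 bp, at 39.99%, against a median of 27.7% over the lags. In this stretch 65.5% of the distances were in range, the median distance was 190 bp, and 40.4% of its 381 positions were in runs. The mean repeat of the 20 runs was 189.1 bp (SD over runs 2.72). GC content was 62.2% over the stretch, and the mean score of 17.5 was between the 18.3 of all run positions and the 15.7 of others. Whether reads were assigned to the right copy of the unit was not tested.

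**Figure D5:**
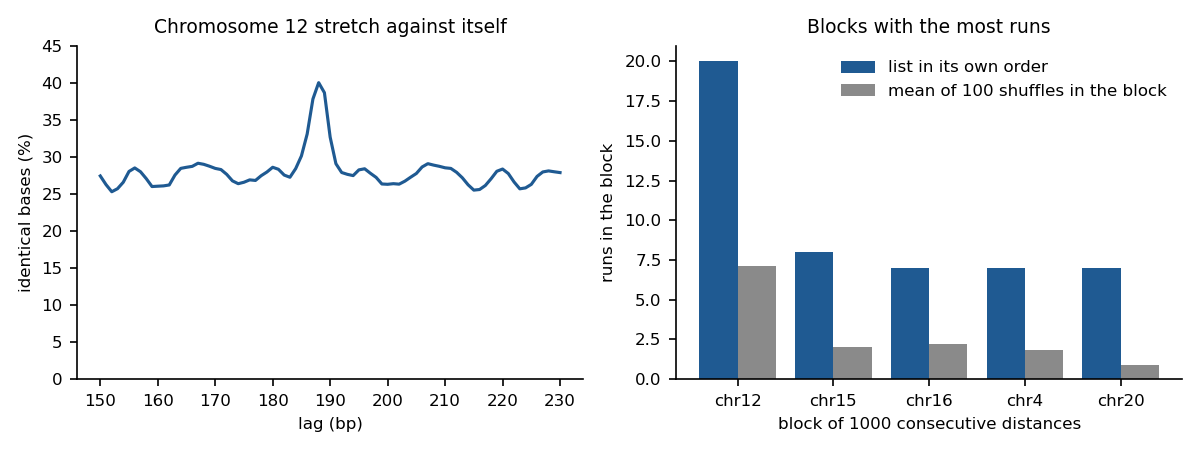
Left, identical bases (%) when the chromosome 12 stretch is compared with itself, against the lag (bp), with a peak of 39.99% at 188 bp. Right, number of runs in the 2 blocks of 1000 distances with the most runs and in 3 of those with 7 runs, in the list (blue) and as the mean of 100 shuffles within the block (grey), where the chromosome 12 block has 20 against 7.12 and the others 7 or 8.

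Such repeats were rare among runs. There were 18 runs (0.104%) with an identity of at least 50% at some lag, and 7 of them lay in the chromosome 12 cluster or beside it. Among spans moved by 10 kb, 46 reached that identity. The median identity of moved spans was 30.1%, close to the 29.8% of the runs.

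The longest runs lay in varied surroundings. The longest began 380 bp from the annotated start of ZDHHC21, which encodes a palmitoyltransferase on the minus strand, and extended away from the gene. Its 15 scores were 29.6, 17.3, 16.0, 27.1, 16.0, 33.3, 21.0, 7.40, 7.40, 14.8, 14.8, 27.1, 22.2, 7.40 and 7.40. The highest was at the sixth position, and 4 positions had a score of 7.40. The distances were 170, 180, 200, 190, 180, 210, 190, 190, 190, 200, 170, 190, 170 and 190 bp. A run of 13 distances lay near the 3′ end of SLC18A1, which encodes a vesicular monoamine transporter, with a mean repeat of 186.2 bp and scores from 16.0 to 40.7. Another of 13 distances lay in DOCK3, a gene for a guanine nucleotide exchange factor of neurons, with the widest mean repeat of the 10 longest runs, 196.2 bp, and scores from 7.40 to 37.0.

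Of the other runs among the 10 longest, 2 had 12 distances in the chromosome 12 cluster or beside it. Their mean scores were 22.4 and 20.4. The others of 12 distances lay in the long non-coding RNA gene GCAWKR, 1423 bp from ALDH1A3, which encodes a retinaldehyde dehydrogenase, and in introns of the metalloprotease gene ADAMTS9. Runs of 11 distances lay in EXD3, across the promoter and the beginning of TMEM120A, and 16166 bp from C3orf20. The run in EXD3 had a score of 64.2 at its second position, while its other scores lay from 19.7 to 29.6. The 5 runs with the highest mean score were short, with 5 to 7 distances, and had mean scores from 39.1 to 40.7. They lay at the 5′ end of SARS1, the cytosolic seryl-tRNA synthetase gene, and in SRCIN1, SLC5A10, ARHGEF10L and SYT7. In the SARS1 run the 6 scores were 28.4, 51.8, 25.9, 66.6, 38.2 and 33.3, and 3 of the positions were in the promoter class.

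Among protein-coding genes, 5240 of 19111 (27.4%) held at least 1 position of a run. Of the 11238 gene bodies with at least 100 positions, 6637 had no run at all. The highest share was in EHBP1L1, where 19 of 100 positions (19%) lay in 3 runs and 43% of distances were in range. MAP1A, which encodes a microtubule-associated protein of neurons, had 15.7%. MESP2, a transcription factor gene of somite formation, had 15%, the RNA helicase gene DDX20 14.9% and MMRN2 14.7%. The gene ENSG00000244255, STARD3, LAD1, SP7, which encodes the osterix factor of bone, and SLC18A1 had 12.6% to 13.8%. At the other end, CADM2, a cell adhesion gene, had no run among 4403 positions, and VPS13B, FSTL5, PTPRK and PIEZO2 none among 3704, 2967, 2432 and 2319. These 5 were the bodies with the most positions among the 6637 without a run. In CADM2 20.8% of the distances were in range, the mean score was 12.7 and GC content 36.6%. In EHBP1L1 the mean score was 23.1 and GC content 61.3%.

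Genes of pluripotency, of general cell functions and of the heart were examined as lists. Of 16 pluripotency genes, 3 held a run (18.8%), as did 1 of 10 autosomal housekeeping genes and 3 of 12 cardiac genes (25%), against 27.4% of all protein-coding genes. The counts rest on 1 to 3 genes, and the genes differ in length. As a share of positions, which allows for length, 0.847% of the 3069 positions in pluripotency genes were in runs, 0.257% of the 779 in housekeeping genes and 0.529% of the 6053 in cardiac genes, against 0.881% in all protein-coding genes. POU5F1, SOX2 and NANOG, the core pluripotency factors, had none among 87, 13 and 44 positions. At EEF2, which carries the reporter in this line, none of 55 positions were in a run.

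In the pluripotency list, KLF4, one of the reprogramming factors, had a run of 6 positions downstream of its TSS. From the midpoint 2948 bp away to the one 1988 bp away, the scores were 12.3, 28.4, 21.0, 25.9, 25.9 and 14.8. TFCP2L1, a factor of the naive state, had one in its 3′UTR with scores from 12.3 to 41.9. The nuclear receptor gene ESRRB had 2 intronic runs, of 8 and 6 positions. Among housekeeping genes, B2M, the light chain of MHC class I, had a run across its TSS, with midpoints from -826 to 124 bp. Its scores in that order were 13.6, 21.0, 27.1, 25.9, 7.40 and 37.0, so the last position upstream was the lowest and the first one downstream the highest. Among cardiac genes, MYH7, the slow myosin heavy chain gene, also had a run across its start, with 7 scores from 12.3 to 32.1. The troponin T gene TNNT2 had a run of 6 positions, and the calcium release channel gene RYR2 had 4 of 6 positions each.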

How the data were processed

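Per the study's methods, the authors trimmed the 150-bp reads with Trimmomatic 0.40 and took the low-depth 50-bp set no further in the nucMACC workflow, which aligned to GRCh38 and left out blacklisted regions. The position list was called on pooled libraries. The runs pooled, the caller and the scaling of the score are not given in the sources used here. The deposited score is a signal per 140-bp position that is never negative. Read totals per library are given in the study but not in the list, so the depth behind a single position is unknown.

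All positions on autosomes were used without a filter. Midpoints were taken at the start plus 70 bp. Runs were sought in the distances between neighbours, and shuffled 100 times within each chromosome or block. The annotation was GENCODE release 44, not the later one of the study, and sequence was read from hg38. The expected share of positions in runs for a set of sites is the mean over its positions of the share in their score decile. The named items were the 10 longest runs (ties by higher mean score), the 5 with the highest mean score, the 3 longest with a CTCF match, the 10 longest runs that began within 300 bp downstream of a start site, the 10 gene bodies of at least 100 positions with the highest share and the 5 with the lowest (ties by more positions), and 3 gene lists. The chromosome 12 cluster was added after its values were seen. The runs, lists and motifs were chosen with earlier results of these data known. Alternatives changed the rule, the positions used, the comparison, the annotation, the start site and the motif. Because the list is pooled, samples entered no comparison and no library could be left out. Scripts ran under Python 3.11.15 with pandas 2.3.3, SciPy 1.17.1, matplotlib 3.10.9 and NumPy 2.4.6. Run finding, overlaps and motif matching were tested on simulated data.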

Additional observations from a re-analysis of the deposited data

Results flagged for a closer look

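Chromosome X was outside the rule, which is restricted to autosomes. The same search found 147 runs there, against a shuffled mean of 67.7 and shuffled counts of 51 to 97, a ratio of 2.17. The frequency of runs per position on this chromosome is not reported here. The longest had 11 distances and the mean repeat was 189.4 bp.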

How the results depend on the processing

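Of 40 alternatives for 10 results, 18 stayed within the spread over autosomes, 21 moved beyond it and 1 reversed. The 1 that reversed used the CTCF motif read backwards, which marks other sites, so it does not measure the CTCF matches again. No paired analysis was possible because each concentration had 1 library and the positions are pooled. The ratio of runs to shuffled runs was 1.46, 2.26 and 3.50 with at least 4, 6 and 8 distances, 2.08 with 180 to 200 bp, 1.52 with 160 to 220 bp, 2.76 without positions below the median score, 1.70 with shuffling in blocks and 2.17 on chromosome X, and stayed above 1 in these 8 settings. The share of positions in runs was 2.46% and 0.334% with at least 4 and 6 distances, 0.102% with 180 to 200 bp, 3.16% with 160 to 220 bp and 0.301% when positions under the median score were dropped. The mean repeat was 188.6 bp with 160 to 220 bp and 189.9 bp after low-scoring positions were dropped. The score ratio was 1.11 against positions 6 to 10 places outside and 1.13 against the same GC decile. The GC difference was 3.74 points for whole spans against all sequenced bases, 0.118 against positions 6 to 10 places outside and 2.21 with at least 8 distances. The first of these includes a difference that called positions share, in runs or not. All autosomal positions had a mean GC content of 43.3%, against 41.0% of autosomal bases. The promoter ratio was 1.79 with protein-coding genes only. The ratio at CTCF matches reversed to 0.866 with the motif read backwards, and was 3.27 with the strict consensus, which had 849 matches. Against the share expected from score deciles, added after the data were seen, the ratios were 1.62 downstream of TSSs, 2.23 at CTCF matches and 1.24 in promoters. Apart from these constructions, the cause of the changes was not tested. The pooled list has no replicate error, most distances lie on a 10-bp grid, and a run is counted only where all of its positions were called.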

Other observations

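The 1712 positions of the 277 runs of 220 to 260 bp lay in promoters at 5.67%, against 5.59% in runs of 170 to 210 bp, in introns at 60.8%, against 56.6%, and in intergenic sequence at 29.6%, against 32.5%. Their 5′UTR share was 1.52%, against 0.697%, from few positions. Their mean score was 16.7, against 18.3. Runs of 100 to 140 bp lay in coding sequence at 2.64% of their positions and in the 3′UTR at 2.70%, against 1.95% and 2.05%, and in intergenic sequence at 27.4%, against 32.5%. These ranges were chosen after the data were seen, and no spread over autosomes was computed for them.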
